A study of Mus musculus with 2 samples.

Results

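The transcripts of 10 genes of epidermal growth factor receptor (EGFR) signalling were examined in cultured mouse keratinocytes, the main cells of the epidermis. They are the ligand genes Epgn, Tgfa, Hbegf, Areg, Ereg and Btc, the receptor genes Egfr, Erbb2 and Erbb3, and the inhibitor gene Errfi1. They were chosen by name, with earlier results of these data known. All 10 were found among the 47719 genes of the deposited table. Keratinocytes of the genotype K5.Pp6fl/fl (1 library) were set against keratinocytes of the genotype Pp6fl/fl (1 library), which carry the same floxed Pp6 alleles. Pp6, listed as Ppp6c, encodes the catalytic subunit of the serine/threonine phosphatase PP6, and in K5.Pp6fl/fl mice it is deleted in cells with an active keratin 5 promoter, which is a promoter of basal keratinocytes. The tail skin donors of both cultures were C57BL/6J mice, 8 weeks of age, and the cells spent 3 days in Medium 154CF. The number of mice behind each culture is not given in the labels, and no other control group was analysed. The K5.Pp6fl/fl library held 17361256 estimated reads and the Pp6fl/fl library 19374767.

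EGFR ligands are made as membrane-bound precursors and are released by metalloproteases of the ADAM family, above all ADAM17. They bind EGFR on the same or neighbouring cells, EGFR then pairs with itself or with ERBB2 or ERBB3, and keratinocytes use this autocrine loop for growth, migration and survival. ERBB2 has no known ligand of its own and serves as a partner, ERBB3 binds neuregulins and signals mainly through its partners, and ERRFI1 (also called MIG6) is made in response to EGFR signalling, binds the receptor's kinase domain and blocks it.

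With 1 library per genotype there is no replicate check of any difference, and no test of genotype was made. Each fold divides the depth-scaled read count (CPM) of K5.Pp6fl/fl by that of Pp6fl/fl, and the 95% interval in brackets covers counting error only. Fewer cells of a type and less RNA per cell cannot be told apart in such bulk samples. The targeted gene Ppp6c had 707 reads in K5.Pp6fl/fl and 1074 in Pp6fl/fl, a fold of 0.733 (0.665 to 0.806), so its transcript was lower but well detected in the library labelled K5.Pp6fl/fl. In the authors' deposited FPKM, which divide by gene length, Ppp6c had 16.8 in K5.Pp6fl/fl and 30.6 in Pp6fl/fl, a fold of 0.548, and the log2 fold change in the authors' deposited table was -0.86. The ratio of reads to FPKM, which follows the effective length the authors used, was 1.34 times as high in K5.Pp6fl/fl as in Pp6fl/fl for Ppp6c, relative to the median gene. It was lower in 98.7% of 10660 genes with over 50 reads in each library. The keratinocyte markers Krt14 and Krt5 stood at 28559 and 17100 CPM in K5.Pp6fl/fl, against 30702 and 17801 CPM in Pp6fl/fl. Of the 7 keratinocyte markers, 1 had an interval above 1 and 4 had one below. Of all genes at 1 CPM or more in at least 1 library, 16.6% had an interval above 1 and 17.4% one below. Intervals are narrow for markers with many reads. That of Krt14, with 496466 reads in K5.Pp6fl/fl and 594066 in Pp6fl/fl, was 0.927 to 0.934. The basal transcription factor gene Trp63, at a fold of 0.776 (0.759 to 0.793), and the suprabasal keratin Krt10, at 0.770 (0.658 to 0.898), were lower in K5.Pp6fl/fl by about as much as Egfr and Errfi1, and the cadherin gene Cdh1 was higher at 1.09 (1.06 to 1.11). Trp63, Krt10 and Cdh1 were named after their values were seen. The part of the make-up of the cultures in the values of the 10 genes was not tested. The 6 melanocyte markers summed to 15.3 CPM in K5.Pp6fl/fl and 7.39 CPM in Pp6fl/fl, a fold of 2.07 (1.68 to 2.56). Of the 4 that reached 1 CPM, Dct, Tyrp1 and Pmel had an interval above 1, and Tyr had 21 reads in K5.Pp6fl/fl and 13 in Pp6fl/fl, with an interval of the fold that includes 1 (0.859 to 3.91). The 6 fibroblast markers summed to 0.92 CPM in K5.Pp6fl/fl and 0.775 CPM in Pp6fl/fl, with Lum at 0 reads. The leukocyte genes Ptprc, Cd3e and Cd3g and the Langerhans cell gene Cd207 had 0 reads in both libraries (a count of 0 allows up to 3 reads), and the leukocyte and the Langerhans and myeloid lists summed to at most 2 reads in either. The endothelial and Merkel cell lists had 23 and 2 reads in K5.Pp6fl/fl, against 12 and 0 in Pp6fl/fl.

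All 10 genes were expressed, meaning at 1 CPM or more in at least 1 library. The ligands Tgfa and Hbegf were higher in K5.Pp6fl/fl, by 32.2% and 25.8%. The receptor Egfr and the inhibitor Errfi1 were lower in K5.Pp6fl/fl, with differences of -19.8% and -19.9%. The abundant ligand Epgn and the receptors Erbb2 and Erbb3 differed by under 5%, and for Areg, Ereg and Btc the reads were too few to tell.

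Of the 10 genes, 0 were 2-fold higher and 0 were 2-fold lower. A gene counts as such where the log2 ratio of CPM + 0.5 is at least 1 in size, the larger value is at least 1 CPM and the interval excludes 1. Of 12325 expressed genes in the table, 0.811% were 2-fold higher and 0.195% 2-fold lower by this rule. The interval lay above 1 for 2 of the 10 genes, where 16.6% of expressed genes had such an interval, and below 1 for 2 of the 10, where 17.4% had. Of the 7 members averaging 20 CPM or more, 2 had an interval above 1 and 2 below, where the shares of all such genes were 18.7% and 22.9%. With so few genes, these counts do not set the 10 apart from the rest of the table.

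**Figure D1:**
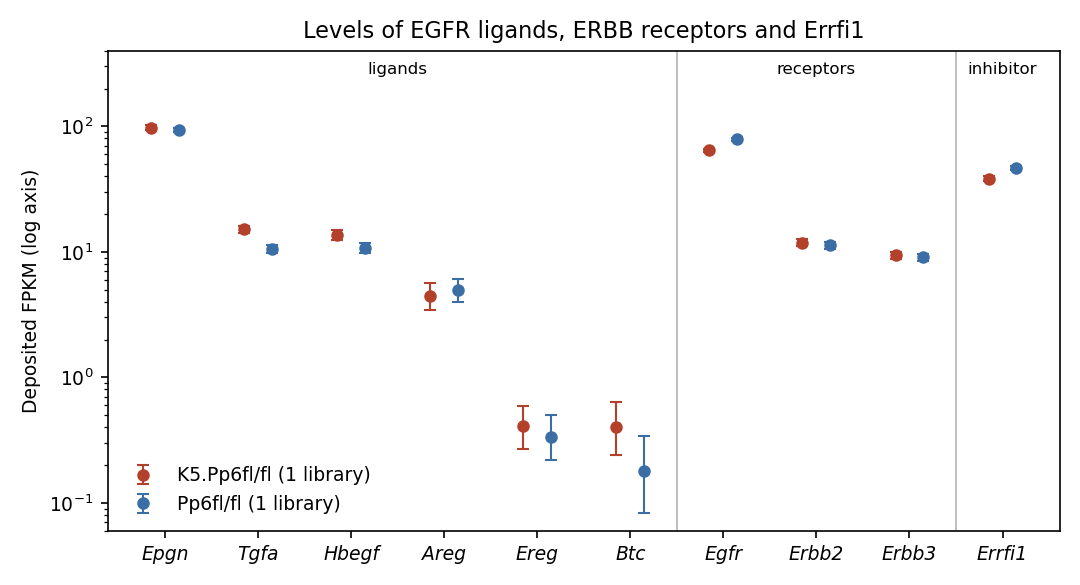
Deposited FPKM (log axis) of the 10 genes in the K5.Pp6fl/fl library (red, left of each pair) and the Pp6fl/fl library (blue), with exact Poisson intervals (95%) of the reads carried to the FPKM scale. Epgn, Egfr and Errfi1 lie highest in both libraries, and Ereg and Btc lie below 1 FPKM in both.

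Levels of different genes are compared here per length, in the authors' deposited FPKM. Epgn, which encodes epigen, a ligand of EGFR, had the highest level of the 10 genes, with 97.5 FPKM in K5.Pp6fl/fl and 93.6 FPKM in Pp6fl/fl. Egfr came next with 64.6 FPKM in K5.Pp6fl/fl and 78.7 FPKM in Pp6fl/fl. Errfi1 was the third with 38.2 FPKM in K5.Pp6fl/fl and 46.8 FPKM in Pp6fl/fl. The counting intervals of these 3 genes were apart from each other and from those of all other members in each library.

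Below them the order differed between the libraries. In K5.Pp6fl/fl Tgfa was the fourth at 15.2 FPKM (14.2 to 16.1), followed by Hbegf at 13.5 FPKM (12.4 to 14.8) and Erbb2 at 11.8 FPKM (11.1 to 12.6). The interval of Tgfa overlapped that of Hbegf and was apart from that of Erbb2. In Pp6fl/fl the same 3 genes lay within 1 FPKM of each other, with Erbb2 at 11.3, Hbegf at 10.7 and Tgfa at 10.5 FPKM, and neighbouring intervals overlapped. Erbb3 followed at 9.43 FPKM in K5.Pp6fl/fl and 9.04 FPKM in Pp6fl/fl. Areg had 4.44 FPKM in K5.Pp6fl/fl and 4.94 FPKM in Pp6fl/fl. Ereg and Btc could not be ordered in either library, at 0.407 and 0.404 FPKM in K5.Pp6fl/fl and at 0.337 and 0.181 FPKM in Pp6fl/fl.

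Among the ligands, Tgfa encodes transforming growth factor alpha, which binds EGFR alone. It had 976 reads (56.1 CPM) in K5.Pp6fl/fl and 822 reads (42.5 CPM) in Pp6fl/fl, a fold of 1.32 (1.2 to 1.45). By FPKM the fold was 1.44. The ratio of reads to FPKM was 0.922 times as high in K5.Pp6fl/fl as in Pp6fl/fl for Tgfa, relative to the median gene. It was lower still in 7.57% of the same 10660 genes. The isoforms behind that length were not analysed here.

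Hbegf encodes heparin-binding EGF-like growth factor, a ligand of EGFR and ERBB4 that is made at wound edges. It had 486 reads (28.0 CPM) in K5.Pp6fl/fl and 430 reads (22.2 CPM) in Pp6fl/fl, which is 1.26-fold (1.1 to 1.44), and also 1.26-fold by FPKM. The folds of Tgfa and Hbegf differed from each other by less than counting error, with a ratio of the folds of 1.05 (0.893 to 1.24). Among 7385 genes averaging 20 CPM or more, 3.34% had a higher log2 ratio than Tgfa and 4.79% a higher one than Hbegf.

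Epgn differed little. It had 2382 reads (137 CPM) in K5.Pp6fl/fl and 2530 reads (131 CPM) in Pp6fl/fl, a fold of 1.05 (0.991 to 1.11). Folds above 1.11 or below 0.991 lie outside this interval. The fold of Tgfa exceeded that of Epgn by a ratio of 1.26 (1.13 to 1.41), and that of Hbegf did so by 1.2 (1.04 to 1.39).

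The other ligands had few reads, and of these Ereg and Btc lay near the floor of 1 CPM. Areg, which encodes amphiregulin, a keratinocyte growth factor that binds EGFR, had 70 reads in K5.Pp6fl/fl and 87 in Pp6fl/fl, a fold of 0.896 (0.644 to 1.24). It was the only ligand with a fold below 1, and its fold was lower than that of Tgfa, with a ratio of 0.678 (0.481 to 0.953). Ereg, which encodes epiregulin, a ligand of EGFR and ERBB4, had 27 reads in K5.Pp6fl/fl and 25 in Pp6fl/fl, a fold of 1.2 (0.672 to 2.16). Btc, which encodes betacellulin, a ligand of the same receptors, had 18 reads in K5.Pp6fl/fl (exact Poisson interval 10.7 to 28.4) and 9 in Pp6fl/fl (4.12 to 17.1). Its fold of 2.23 was the highest of the 10 genes but had the widest interval (0.95 to 5.63), which includes 1. These 3 genes together had 115 reads in K5.Pp6fl/fl and 121 in Pp6fl/fl, a fold of 1.06 (0.812 to 1.38), with no difference detectable at this depth.

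**Figure D2:**
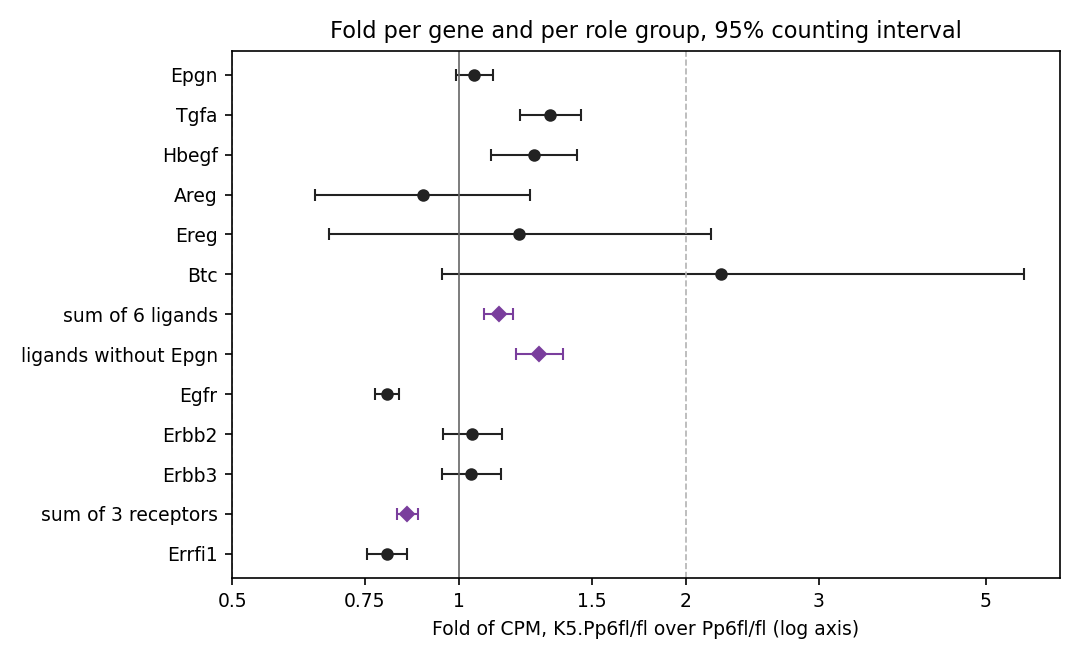
Fold of K5.Pp6fl/fl over Pp6fl/fl in CPM (log axis) for each gene (black circles) and for summed reads of the role groups (purple diamonds), with exact counting intervals (95%) and dashed lines at a 2-fold difference. Tgfa and Hbegf lie to the right of 1, Egfr and Errfi1 to the left at almost the same place, and the intervals of Areg, Ereg and Btc are wide.

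As a group, 5 of the 6 ligands had a log2 ratio above 0, where 46.8% of expressed genes had, and 2 of the 5 had an interval above 1. The median log2 ratio of the 6 was 0.26, beside -0.01 over all expressed genes. This median rests in part on Ereg. Both Ereg and Btc are among the ligands above 0, though their reads were too few to tell. All 6 ligands summed to 3959 reads (228 CPM) in K5.Pp6fl/fl and 3903 reads (202 CPM) in Pp6fl/fl, a fold of 1.13 (1.08 to 1.18). Epgn holds most of these reads. Without it the sum was 90.7 CPM in K5.Pp6fl/fl and 71.0 CPM in Pp6fl/fl, a fold of 1.28 (1.19 to 1.38).

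Among the EGFR ligands examined, Epgn held most of the transcripts in both libraries, with a smaller share in K5.Pp6fl/fl. Of the summed ligand FPKM, Epgn held 74.2% in K5.Pp6fl/fl and 77.8% in Pp6fl/fl. Tgfa held 11.5% in K5.Pp6fl/fl and 8.75% in Pp6fl/fl, and Hbegf 10.3% in K5.Pp6fl/fl and 8.91% in Pp6fl/fl. Areg held 3.37% in K5.Pp6fl/fl and 4.1% in Pp6fl/fl, and Ereg and Btc each held under 1% in either library. The level of Epgn was 6.44 times that of Tgfa in K5.Pp6fl/fl and 8.89 times in Pp6fl/fl. The fold of Tgfa was 1.44 by FPKM and 1.32 by reads. These FPKM values therefore show a larger difference for Tgfa than its reads do.

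**Figure D3:**
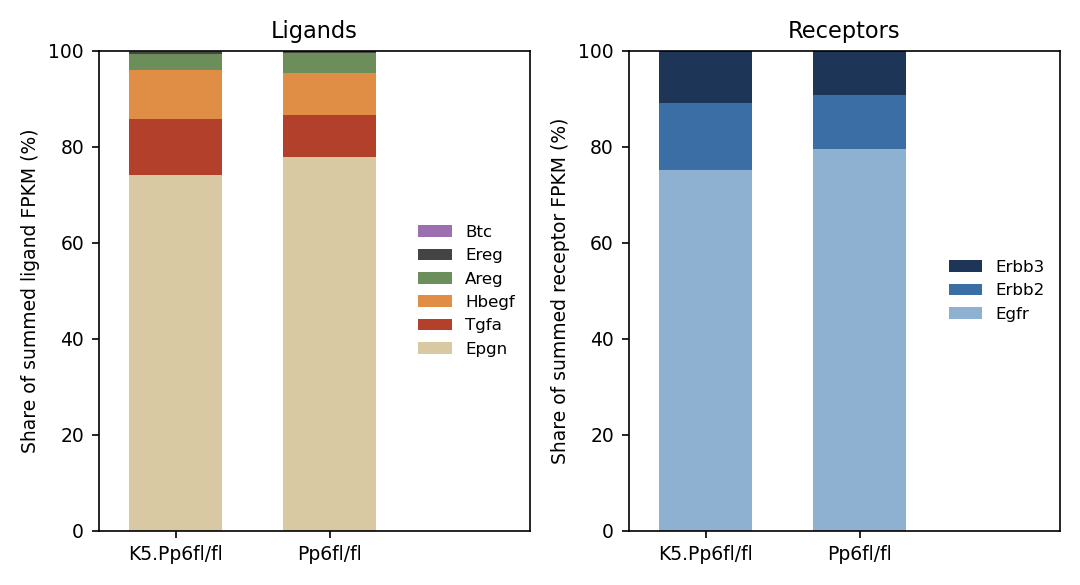
Share (%) of each ligand in the summed ligand FPKM (left panel) and of each receptor in the summed receptor FPKM (right panel), K5.Pp6fl/fl left of Pp6fl/fl, 1 library each. Epgn takes 74.2% of the ligand sum in K5.Pp6fl/fl and 77.8% in Pp6fl/fl, and Egfr takes 75.2% of the receptor sum in K5.Pp6fl/fl and 79.5% in Pp6fl/fl.

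Among the receptors, Egfr was lower in K5.Pp6fl/fl and its partners were not. Egfr, the receptor of all 6 ligands, had 5104 reads (294 CPM) in K5.Pp6fl/fl and 7086 reads (366 CPM) in Pp6fl/fl, a fold of 0.802 (0.773 to 0.831) by reads and 0.821 by FPKM. Among the 7385 genes averaging 20 CPM or more, 2.32% had a lower log2 ratio. Erbb2, the partner without a ligand, had 929 reads (53.4 CPM) in K5.Pp6fl/fl and 993 reads (51.3 CPM) in Pp6fl/fl, a fold of 1.04 (0.951 to 1.14). Erbb3, the neuregulin receptor, had 934 reads (53.7 CPM) in K5.Pp6fl/fl and 1001 reads (51.7 CPM) in Pp6fl/fl, a fold of 1.04 (0.949 to 1.14). Melanocytes also express Erbb3, and the summed melanocyte markers were higher in K5.Pp6fl/fl, as given above. Their part in the Erbb3 value was not tested.

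The fold of Egfr was lower than that of the summed Erbb2 and Erbb3 reads, with a ratio of 0.771 (0.716 to 0.83). Erbb2 and Erbb3 had almost the same fold, with a ratio of 1.0 (0.882 to 1.14). Egfr stood 5.46 times as high as Erbb2 in K5.Pp6fl/fl and 6.97 times in Pp6fl/fl, in FPKM. The summed receptor reads were 401 CPM in K5.Pp6fl/fl and 469 CPM in Pp6fl/fl. The fold of 0.854 (0.828 to 0.881) rests on Egfr. Without it the fold was 1.04 (0.976 to 1.11).

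Errfi1, the inhibitor, was lower in K5.Pp6fl/fl by almost the same proportion as Egfr. It had 1790 reads (103 CPM) in K5.Pp6fl/fl and 2486 reads (128 CPM) in Pp6fl/fl, a fold of 0.801 (0.754 to 0.852) by reads and 0.815 by FPKM. The ratio of its fold to that of Egfr was 1.0 (0.931 to 1.07), so the folds differed by less than counting error. In FPKM, Errfi1 stood at 0.591 times the level of Egfr in K5.Pp6fl/fl and 0.595 times in Pp6fl/fl. Among the 7385 genes averaging 20 CPM or more, 2.36% had a lower log2 ratio than Errfi1.

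Set against each other, ligand reads were higher relative to receptor reads in K5.Pp6fl/fl. The ratio of the ligand fold to the receptor fold, which does not depend on library scaling, was 1.32 (1.25 to 1.4). Its size rests on the most abundant genes. On the log2 scale it was 0.40 with all genes, 0.58 without Epgn, 0.12 without Egfr and 0.30 without either. The fold of Tgfa exceeded that of Egfr by a ratio of 1.65 (1.49 to 1.82), that of Hbegf did so by 1.57 (1.37 to 1.8) and that of Epgn by 1.31 (1.22 to 1.4). Ligands against Errfi1 gave 1.41 (1.31 to 1.52). In FPKM, the ligand sum was 1.53 times the receptor sum in K5.Pp6fl/fl and 1.22 times in Pp6fl/fl. Without Epgn, the other ligands summed to 0.395 times the receptor sum in K5.Pp6fl/fl and 0.270 times in Pp6fl/fl. The sum of the EGFR ligands examined thus exceeded the receptor sum only with Epgn included. These sums are not matched, since the receptor sum holds Erbb3 and the ligand sum leaves out the neuregulin gene Nrg1. Nrg1 alone, at 110 FPKM in K5.Pp6fl/fl and 120 FPKM in Pp6fl/fl, exceeded the receptor sums of 85.8 and 99.0 FPKM.

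**Figure D4:**
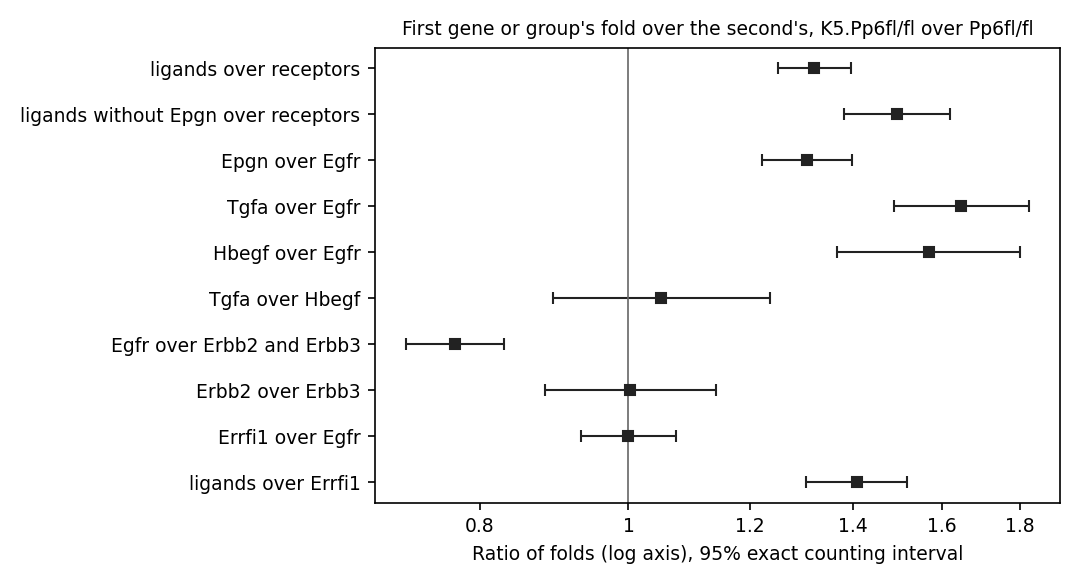
Ratio of the fold (K5.Pp6fl/fl over Pp6fl/fl) of the first gene or group to that of the second (log axis), with exact counting intervals (95%). The ligand genes drawn, Epgn, Tgfa and Hbegf, lie above 1 against Egfr. Errfi1 lies at 1.0 against Egfr, and Egfr lies at 0.771 against Erbb2 and Erbb3.

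The authors' deposited table lists the same directions. In the authors' deposited table the log2 fold change was 0.52 for Tgfa with an FDR of 2.01e-05, and 0.33 for Hbegf with an FDR of 0.0145. It was -0.28 for Egfr with an FDR of 3.66e-07 and -0.29 for Errfi1 with an FDR of 4.57e-05 in the authors' deposited table. The other 6 members had an FDR of 0.293 or more there. These FDR values come from 1 library per genotype, and the sources used here do not give the spread between cultures that was assumed.

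The 250 bases before the start sites of Tgfa, Egfr and Errfi1 are shown (RefSeq, GRCm38.p6), genes picked after their folds were seen. The window of Hbegf is not shown. Whether these sequences bear on the folds was not tested. RefSeq lists a pair of start sites for Errfi1, and the table does not say which was in use. Capitals mark GGGCGG (the GC box, bound by Sp1 factors) and TATAAA (the TATA box), searched on both strands with TGANTCA, the AP-1 motif, which occurs in none of these windows. Of 27025 genes with a listed promoter, 32.9% hold GGGCGG in this window, 13.0% TATAAA and 6.87% TGANTCA.
Tgfa, chr6:86194972-86195221, plus strand: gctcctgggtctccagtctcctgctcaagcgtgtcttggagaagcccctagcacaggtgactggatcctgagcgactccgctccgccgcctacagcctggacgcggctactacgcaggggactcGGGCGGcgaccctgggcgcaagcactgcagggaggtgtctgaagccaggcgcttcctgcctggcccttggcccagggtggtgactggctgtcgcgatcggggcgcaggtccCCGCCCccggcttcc
Egfr, chr11:16751953-16752202, plus strand: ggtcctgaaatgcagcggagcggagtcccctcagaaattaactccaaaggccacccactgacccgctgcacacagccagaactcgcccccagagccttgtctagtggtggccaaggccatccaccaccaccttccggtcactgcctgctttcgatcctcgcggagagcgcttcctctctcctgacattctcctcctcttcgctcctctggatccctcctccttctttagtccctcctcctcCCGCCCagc
Errfi1 start site 1, chr4:150853546-150853795, plus strand: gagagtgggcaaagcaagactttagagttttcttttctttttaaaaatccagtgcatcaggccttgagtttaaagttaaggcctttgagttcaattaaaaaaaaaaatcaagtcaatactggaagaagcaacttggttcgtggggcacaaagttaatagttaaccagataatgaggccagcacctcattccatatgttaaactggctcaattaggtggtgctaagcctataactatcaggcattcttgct
Errfi1 start site 2, chr4:150854820-150855069, plus strand: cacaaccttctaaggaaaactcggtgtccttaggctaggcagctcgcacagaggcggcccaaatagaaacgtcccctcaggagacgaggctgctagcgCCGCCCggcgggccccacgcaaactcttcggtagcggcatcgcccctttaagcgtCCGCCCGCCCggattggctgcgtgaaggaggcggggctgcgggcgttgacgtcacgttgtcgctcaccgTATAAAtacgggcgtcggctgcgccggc

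The Tgfa window is 69.2% G and C with 2 GC boxes, and the Egfr window is 60.8% G and C with 1. The median over all listed promoters is 52%. Neither window holds TATAAA. The windows of Errfi1 differ from each other: start site 1 lies in 38% G and C with 0 GC boxes, and start site 2 in 64.8% with 3 GC boxes, 2 of them overlapping, and 1 TATAAA. A match is a description of the letters and not a bound site.

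Other genes of the pathway were read from lists chosen by role, with earlier results of these data known. Among the other ERBB ligands and the remaining receptor, 2 of 6 were expressed. The ERBB3 ligand Nrg1, neuregulin 1, was abundant at 110 FPKM in K5.Pp6fl/fl and 120 FPKM in Pp6fl/fl, with a fold of 0.959 (0.92 to 1.0). Nrg2 had 47 reads in K5.Pp6fl/fl and 73 in Pp6fl/fl, a fold of 0.717 (0.486 to 1.05). Egf itself had 3 reads in K5.Pp6fl/fl and 14 in Pp6fl/fl, and Erbb4, the remaining receptor, and Nrg3 had 0 in both. Egf is named outside the rule, with its value known.

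Genes of ligand shedding had 12 of 13 members expressed, 11 with a log2 ratio above 0, 4 with an interval above 1 and 1 below, where the shares of expressed genes were 46.8%, 16.6% and 17.4%. Their median log2 ratio was 0.08, beside -0.01 over all expressed genes. None was 2-fold apart, and most of their intervals included 1. Adam8, a metalloprotease of inflamed and wounded tissue, was the most abundant by CPM, at 578 CPM in K5.Pp6fl/fl and 441 CPM in Pp6fl/fl, a fold of 1.31 (1.27 to 1.35). Nrd1, the protease nardilysin that enhances shedding, had a fold of 1.05 (1.0 to 1.11). Further members were named after their values were seen. Timp3, the gene of a metalloprotease inhibitor, and Frmd8 count among those above 0. Their folds were 1.0 (0.955 to 1.06) and 1.0 (0.942 to 1.07). Adam12, a metalloprotease that can cleave HB-EGF, had 453 reads in K5.Pp6fl/fl and 254 in Pp6fl/fl, a fold of 1.99 (1.7 to 2.32), just short of the 2-fold rule. The main sheddase gene Adam17 and its carriers Rhbdf1 and Rhbdf2 (the iRhoms) had folds of 1.05 (0.977 to 1.13), 1.06 (0.978 to 1.15) and 1.06 (0.967 to 1.17).

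Adaptors and proximal signalling genes had 20 of 20 expressed, 6 intervals above 1, 3 below and a median log2 ratio of 0.02. The phosphatase Ptpn11 (SHP2), which carries the signal to RAS, had a fold of 0.97 (0.934 to 1.01), and the kinase Src one of 0.906 (0.867 to 0.947). Receptor inhibitors and feedback regulators other than Errfi1 had 13 of 14 members expressed, 1 interval above 1, 2 below and a median of 0.05. Ptpn1, a phosphatase that acts on EGFR, had a fold of 0.872 (0.818 to 0.93), and Spred2, an inhibitor of the RAS pathway, one of 0.984 (0.913 to 1.06). Receptor ubiquitination and trafficking genes had 12 of 12 expressed, 2 intervals above 1, 3 below and a median of -0.01. Rin1, an exchange factor for RAB5 in receptor uptake, was lower in K5.Pp6fl/fl at 0.769 (0.731 to 0.808), and the deubiquitinase Usp8 was at 0.974 (0.924 to 1.03). Of all expressed genes, 16.6% had an interval above 1 and 17.4% one below. No gene of these 3 lists was 2-fold apart, where 0.811% of expressed genes were 2-fold higher and 0.195% 2-fold lower.

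Of 20 genes that EGFR signalling is known to induce, all expressed, 16 had a log2 ratio above 0 and 4 below, where 46.8% of expressed genes had one above 0. The interval lay above 1 for 10 of them and below 1 for 3, beside 16.6% and 17.4% of expressed genes, and 1 was 2-fold higher. Their median log2 ratio was 0.10, beside -0.01 over all expressed genes. They summed to 5170 CPM in K5.Pp6fl/fl and 4089 CPM in Pp6fl/fl, a fold of 1.26 (1.25 to 1.28). Serpinb2, the gene of a serine protease inhibitor, held the largest part of this sum, with 2535 CPM in K5.Pp6fl/fl and 1717 CPM in Pp6fl/fl. Its own fold was 1.48 (1.46 to 1.5), so the fold of the sum rests much on this gene. The sum without it was not computed. The 2-fold gene was the immediate early factor Egr1, with 960 reads in K5.Pp6fl/fl and 475 in Pp6fl/fl, a fold of 2.25 (2.01 to 2.52). Named, like Serpinb2, after their values were seen, the prostaglandin synthase gene Ptgs2 had a fold of 1.69 (1.63 to 1.75), and Dusp6, the ERK phosphatase made in response to ERK activity, was at 0.771 (0.704 to 0.845). Of 5 early suprabasal genes 2 had an interval above 1 and 1 below, with a median of 0.03. Dsc1 and Dsg1a, cadherins of desmosomes, had folds of 1.02 (0.952 to 1.09) and 1.09 (1.01 to 1.19).

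**Figure D5:**
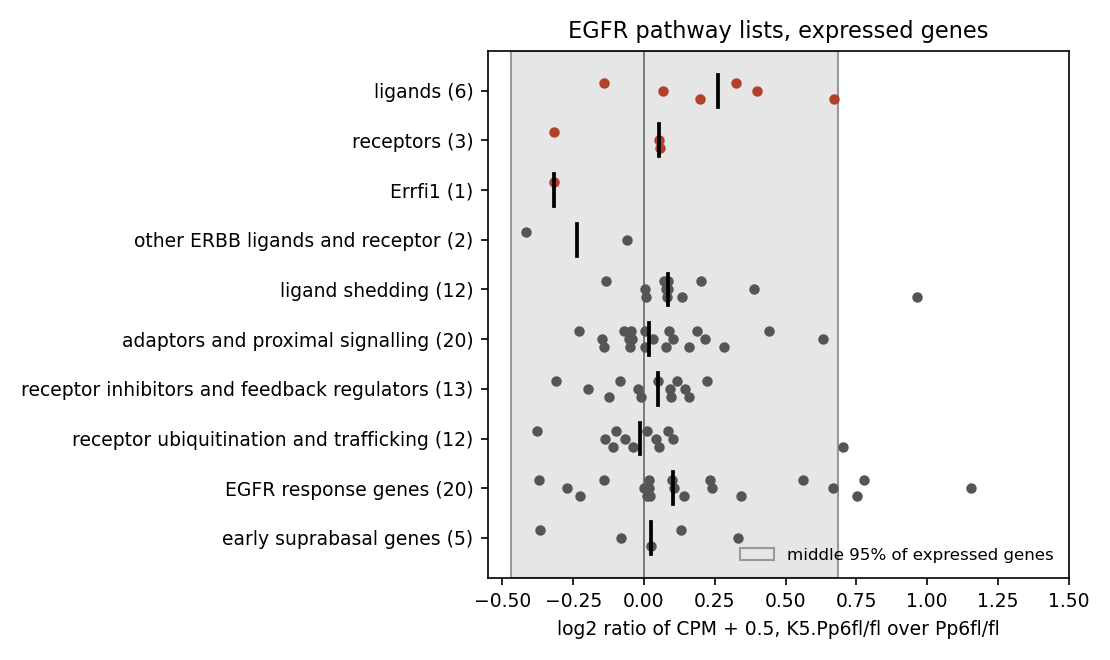
Log2 ratio (K5.Pp6fl/fl over Pp6fl/fl) of CPM + 0.5 for each expressed gene (points) of the 10 members (red) and of the pathway lists (grey), with list medians (black bars) and the middle 95% of expressed genes shaded. The ligand median is 0.26 and rests in part on Ereg, a gene with few reads. The other list medians with over 2 genes lie between -0.01 and 0.10, and Egr1 is the point farthest to the right.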

How the data were processed

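Estimated counts, FPKM, log2 fold changes, p-values and FDRs were deposited by the authors in 1 table, by gene. RSEM, edgeR and the build mm8 are named without versions or roles in the submitters' processing notes. Aligner, annotation release and filters are unstated in the sources used here. Per the labels' protocols the TruSeq libraries were made from oligo(dT)-captured RNA. The deposited estimated counts had been multiplied by 1 constant per library: divided by a step, 97.4% of K5.Pp6fl/fl and 97.3% of Pp6fl/fl values under 100 reads were whole within 0.01 reads. The reads so obtained were rounded. The FPKM values were deposited by the authors scaled to gene length and depth, and the log2 fold change and p-value of the authors rest on 1 library per genotype.

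CPM used TMM-scaled totals (edgeR 4.0.16, R 4.3.3). Folds have exact conditional binomial (Clopper-Pearson) intervals and ratios of folds exact conditional odds ratio intervals, at 95% (scipy 1.17.1); the log2 ratio used a pseudocount of 0.5 CPM. All intervals cover counting error only, since each genotype has 1 library. The reads carry no molecular identifiers, so copies of the same molecule could not be told apart and were counted as separate reads. The procedure was tested on simulated data that held counting error only. That test cannot speak to the spread between cultures, which it left out. Symbols matched 47219 of 47719 gene IDs. In the GENCODE annotation of GRCm38, Erbb2, Ereg and Tgfa share exon bases with a gene on the other strand. For Erbb2 this is Mien1, with 476 reads in K5.Pp6fl/fl and 468 in Pp6fl/fl; the partners of Ereg and Tgfa had at most 2 reads. Reads that do not mark strand cannot separate such pairs.

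The 10 genes and the lists were chosen with earlier results of these data known. Named beside the 10 are Ppp6c, and for each list the 4 largest ratios past the 2-fold rule or, where none passed, the 2 most abundant by CPM; for keratinocyte markers, Krt14 and Krt5. Up to 2 expressed genes on each side of the ligand cluster are also named. Other genes in the text, among them Trp63, Krt10 and Cdh1, are named outside this rule. Likeness of pattern between genes was not measured, since 2 libraries do not allow it. Other scalings, pseudocounts, floors, a fold of 1.5 and FPKM were tried as alternatives.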

Additional observations from a re-analysis of the deposited data

How the results depend on the processing

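The log2 ratios of the 10 genes stayed within their counting intervals in all 70 alternatives run on them (total reads without TMM, DESeq2 size factors, upper quartile scaling, pseudocounts of 0.1 and 2 CPM, counts as deposited, and FPKM), and the count of 2-fold genes among the 10 stayed at 0. Sums depend on their most abundant gene. On the log2 scale the ligand sum was 0.18 and became 0.35 without Epgn, with a median of the 6 genes of 0.26. The receptor sum was -0.23 and turned to 0.056 without Egfr, with a median of the 3 genes of 0.054. Ligands over receptors was 0.40 and became 0.58 without Epgn, 0.12 without Egfr (both chosen after seeing the data) and 0.30 without either; Errfi1 over receptors was -0.09 and became -0.38 without Egfr. By construction a median weighs genes equally and the other sums hold fewer genes. Over all genes, 100 higher and 24 lower 2-fold genes became 173 and 57 with a pseudocount of 0.1 CPM, 33 and 5 with 2 CPM, 49 and 4 at a floor of 5 CPM, 428 and 155 at a fold of 1.5, and 232 and 140 by FPKM without an interval. No paired analysis was possible because each genotype has 1 library. Depth limits Areg, Ereg and Btc, and with 1 library per genotype the spread between cultures is unknown.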

Other observations

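Of the 6 ligand genes, 4 are neighbours on mouse chromosome 5, in the order Epgn, Ereg, Areg and Btc (GENCODE annotation of GRCm38, used for gene order only). Within this cluster the levels were uneven in both libraries, with Epgn at 137 CPM in K5.Pp6fl/fl and 131 CPM in Pp6fl/fl and each of the other 3 under 5 CPM in either. The other annotated genes of the span that are in the table, Gm19610, Gm23092 and Gm19619, had 0 reads in both libraries. The nearest expressed genes before the cluster were the chemokine gene Cxcl2, with 144 reads in K5.Pp6fl/fl and 128 in Pp6fl/fl and a fold of 1.25 (0.98 to 1.6), and Mthfd2l, a mitochondrial enzyme gene of folate metabolism, with a fold of 1.07 (0.753 to 1.51). The nearest after it were the ubiquitin ligase gene Rchy1, with a fold of 0.979 (0.861 to 1.11), and Thap6, with a fold of 0.894 (0.756 to 1.06). All 8 of these expressed genes, the 4 ligands and the 4 flanking ones, had intervals that include 1. The 2 ligand genes whose intervals lie above 1, Tgfa and Hbegf, are on other chromosomes.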
